A study of Homo sapiens with 18 samples.

Results

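The genes described here are 43 interferon-stimulated genes, together with the transcription factors and receptor chains of the same response, measured in sorted cells of human osteosarcoma tumors. They were taken by name from a list, and each was read from 1 probe set of the array, the one annotated to that gene alone with the highest mean signal over the 18 arrays. Of the 43 genes, 41 had such a probe set. STAT2 and UBA7 were not analysed here, since the annotation used names no probe set for STAT2 and only shared probe sets for UBA7. Values are log2 probe set signals, and a gene was tested if it reached 5.36, the median of the whole table, on at least 3 arrays. This left 33 of the 41 genes, among 14418 of 19775 genes in all. The counts below are counts over those 33. Of them, IFIT1, IFI27, IFI44, MX2, GBP1 and GBP2 lay under 5.36 on every 143B array and passed the filter through MNNG arrays, so the size of their difference between the lines is uncertain.

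Interferons are secreted proteins that warn cells of infection. Type I interferons bind the receptor chains IFNAR1 and IFNAR2 and interferon gamma binds IFNGR1 and IFNGR2, and kinases on these receptors then activate STAT proteins. With IRF9, the STAT proteins bind a motif called the interferon-stimulated response element in the promoters of their target genes, many of whose products block viral replication. Tumor cells can carry a low activity of these genes with no interferon added, and it differs between cell lines.

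The 5 groups were 143B_High (n = 3), 143B_Low (n = 5), MNNG_Lung (n = 2), MNNG_High (n = 4) and MNNG_Low (n = 4). 143B and MNNG/HOS, written MNNG here, are each 1 established human osteosarcoma line, both descended from the HOS line. All groups held cells transduced with the green fluorescent protein ZsGreen. Bone tumors were grown from these cells at the orthotopic site, their soft tissue part was taken, and tumor cells were sorted by PKH26, a membrane dye that each division dilutes, into High cells that kept the dye, which the study calls tumor-initiating cells, and Low cells that had lost it, which it calls bulk tumor cells. Because RNA was short, 143B_High is 1 array of tumor 143B-1253 and 2 arrays of pooled material, named 51&52 and 54&55, taken here to be 143B-1251 pooled with 143B-1252, and 143B-1254 pooled with 143B-1255. One MNNG_Lung array came from lung metastases numbered 1233, like one of the bone tumors, and the other from a mixture called Mix. Fewer cells were sorted for every High array than for every Low array, so the fraction and the number of cells cannot be told apart. No label used here says whether lung cells went through the sorter. In bulk RNA, fewer cells of a type and less RNA per cell cannot be told apart.

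Every array of 143B carried 1 date tag in its label and the MNNG arrays carried 2 others, so the line and the tag cannot be told apart. The labels do not say what the tag dates. Arrays differed in how widely their signals spread: the interquartile range was 3.26 to 3.34 for 143B_High, 3.30 to 3.48 for 143B_Low, only 2.09 and 2.28 for MNNG_Lung, 2.76 to 3.18 for MNNG_High, and 3.29 to 3.40 for MNNG_Low. Of the osteoblast and mesenchymal markers, RUNX2, COL1A1, SPARC and VIM averaged over 5.36 in every group, while SP7, ALPL and IBSP averaged under it in all 4 bone tumor groups. The ligand genes IFNB1, IFNA1 and IFNG averaged between 2.63 and 4.05 in the bone tumor groups, below that level too.

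Between Low cells, 143B tumors had less of some interferon-stimulated genes than MNNG tumors and more of others. IFI44, GBP2, IFITM1, IFIT2, GBP1, SAMD9 and ISG15 were 2.47-fold to 8.31-fold lower in 143B_Low, and ISG20, HERC5 and PARP14 were 2.03-fold to 5.25-fold higher. Of the 33 genes, 18 were called at an adjusted p under 0.05 (limma, Benjamini-Hochberg over all genes), 6 higher and 12 lower. That is 54.5% of the 33, against 28.8% of all genes tested. The shares of all genes called higher and lower were 14.4% and 14.5%. IFI44, GBP1, GBP2 and IFIT1 are among the genes that passed the filter through MNNG arrays alone, which favours a difference, so these counts are a description. Of the other 27 genes 14 were called, 6 higher and 8 lower, or 51.9%, and the largest lower fold among them was 4.48. In all 18 the 143B_Low and MNNG_Low arrays did not overlap, and 26.8% of all genes were both called and without overlap. Counting genes that were not called, 21 of the 33 had no overlap, against 38.3% of all genes. The median difference of the 33 genes was -0.16, beside -0.04 over all genes.

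**Figure D1:**
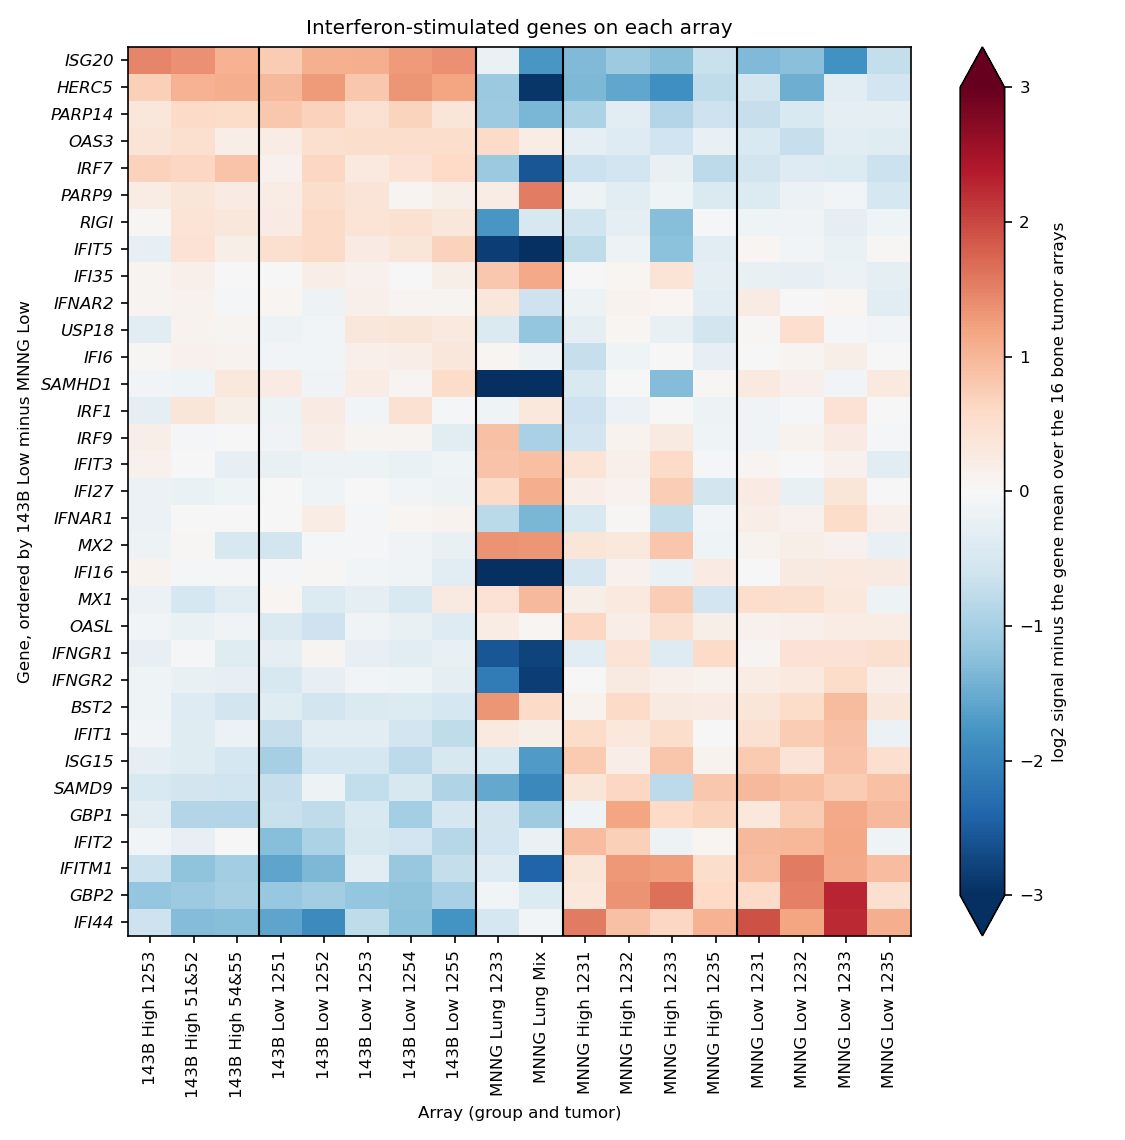
Signal of the 33 tested interferon-stimulated genes on the 18 arrays. Colour shows the log2 signal minus the gene's mean over the 16 bone tumor arrays, columns are arrays ordered by group, and rows run from the gene highest in 143B_Low against MNNG_Low (ISG20) to the lowest (IFI44). The top and the bottom rows change colour between the lines more than between High and Low cells of a line, and IFIT5, SAMHD1 and IFI16 are at the low end of the scale on both lung arrays.

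Genes of the effector families gave the largest differences. IFI44, whose product is induced by type I interferon and restrains the growth of some viruses, measured 4.07, 3.73, 4.90, 4.42 and 3.87 in 143B_Low, against 7.57, 6.82, 7.88 and 6.74 in MNNG_Low. In High cells it measured 5.03, 4.35 and 4.37 in 143B_High, against 7.20, 6.52, 6.27 and 6.69 in MNNG_High. Every 143B array lay below every bone tumor array of MNNG. The difference was -3.06 ± 0.27 in Low cells (adjusted p = 1.01e-07) and -2.09 ± 0.31 in High cells (adjusted p = 5.35e-05), where ± gives the standard error of the limma fit. A dim second IFI44 probe set, under the filter, read -0.25 in Low cells and -0.46 in High cells. The neighbouring gene IFI44L was too low for the filter, with 3.05 to 3.50 in 143B_Low against 4.38 to 5.48 in MNNG_Low. Fitted without the filter, IFI44L differed by -1.44 ± 0.25 in Low cells (adjusted p = 0.000224) and -1.39 ± 0.28 in High cells (adjusted p = 0.00124).

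The guanylate-binding proteins are large GTPases that interferon gamma induces strongly and that attack membranes around intracellular pathogens. GBP2 measured 3.51, 3.62, 3.50, 3.43 and 3.68 in 143B_Low, against 5.23, 6.15, 6.93 and 5.14 in MNNG_Low. The 143B arrays lay close together and below all MNNG_Low arrays, which differed widely among themselves. The GBP2 difference was -2.32 ± 0.30 in Low cells (adjusted p = 1.06e-05) and -2.06 ± 0.35 in High cells (adjusted p = 0.000188). GBP1 was lower by the fit as well, at -1.48 ± 0.23 in Low cells and -1.27 ± 0.26 in High cells (adjusted p = 6.2e-05 and 0.00103). Without probe sets of the types that can match several transcripts, GBP1 in High cells read -0.53 and was not called (adjusted p = 0.0545). GBP3, of the same gene cluster but outside the list, differed by -1.23 ± 0.25 in Low cells (adjusted p = 0.00101), and in High cells it was not called.

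Of the membrane and ubiquitin-like effectors, IFITM1, which keeps viruses from fusing with cell membranes, measured 6.50, 6.72, 7.73, 6.95 and 7.37 in 143B_Low, against 9.01, 9.64, 9.21 and 9.01 in MNNG_Low. ISG15, a ubiquitin-like protein attached to other proteins, measured 8.48, 8.96, 8.96, 8.70 and 9.00 in 143B_Low, against 10.27, 9.89, 10.35 and 9.99 in MNNG_Low. Neither gene's arrays overlapped between the lines. IFITM1 differed by -2.16 ± 0.33 in Low cells (adjusted p = 6.06e-05) and by -1.83 ± 0.38 in High cells (adjusted p = 0.00118). For ISG15 the differences were -1.30 ± 0.22 in Low cells (adjusted p = 0.000137) and -0.87 ± 0.25 in High cells (adjusted p = 0.0113), and in High cells it was not called without the MNNG_High arrays of tumors MNNG-1231 and MNNG-1233 (-0.54, adjusted p = 0.174). BST2, or tetherin, which holds budding virus particles at the cell surface, was called lower in both fractions too, by -1.02 ± 0.16 and -0.65 ± 0.18.

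Among the genes that were higher in 143B, ISG20, an exonuclease that degrades viral RNA, measured 7.95, 8.25, 8.27, 8.46 and 8.55 in 143B_Low, against 5.86, 5.92, 5.37 and 6.47 in MNNG_Low. The groups lay more than 1 log2 unit apart. The difference was 2.39 ± 0.26 in Low cells (adjusted p = 1.17e-06) and 2.38 ± 0.30 in High cells (adjusted p = 7.82e-06), and a second ISG20 probe set gave 2.13 and 2.05. HERC5, the ligase that attaches ISG15 to its targets, measured 7.93, 8.24, 7.77, 8.27 and 8.14 in 143B_Low, against 6.39, 5.49, 6.64 and 6.37 in MNNG_Low. All 143B arrays were the higher ones, and HERC5 differed by 1.85 ± 0.30 in Low cells and 2.32 ± 0.34 in High cells (adjusted p = 0.000112 and 4.82e-05). ISG15 and its ligase thus had opposite signs between the lines.

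Among the transcription factors and sensors, IRF7 was called higher in 143B in both fractions and RIGI in High cells. IRF7, the factor that amplifies type I interferon production, measured 7.89, 8.39, 8.06, 8.20 and 8.37 in 143B_Low, against 7.21, 7.37, 7.36 and 7.11 in MNNG_Low. It was higher by 0.92 ± 0.21 in Low cells and 1.28 ± 0.24 in High cells (adjusted p = 0.00248 and 0.000512), with an adjusted p of 0.0502 in Low cells after a second quantile normalization. IRF1 and IRF9 were not called in either fraction, with differences of 0.02 and -0.06 in Low cells and 0.32 and 0.13 in High cells. RIGI, the sensor of viral RNA in the cytoplasm, was higher by 0.82 ± 0.26 in High cells (adjusted p = 0.022), with 6.86, 7.23 and 7.16 in 143B_High against 6.21, 6.55, 5.53 and 6.76 in MNNG_High. The call was lost without either 143B_High pool or without the High array of MNNG-1233 (adjusted p = 0.0678 to 0.0841), and in Low cells RIGI differed by 0.56 ± 0.23 (adjusted p = 0.0786). The related sensor IFIH1 was under the filter, and fitted without it differed by 0.84 ± 0.21 in Low cells (adjusted p = 0.00676).

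**Figure D2:**
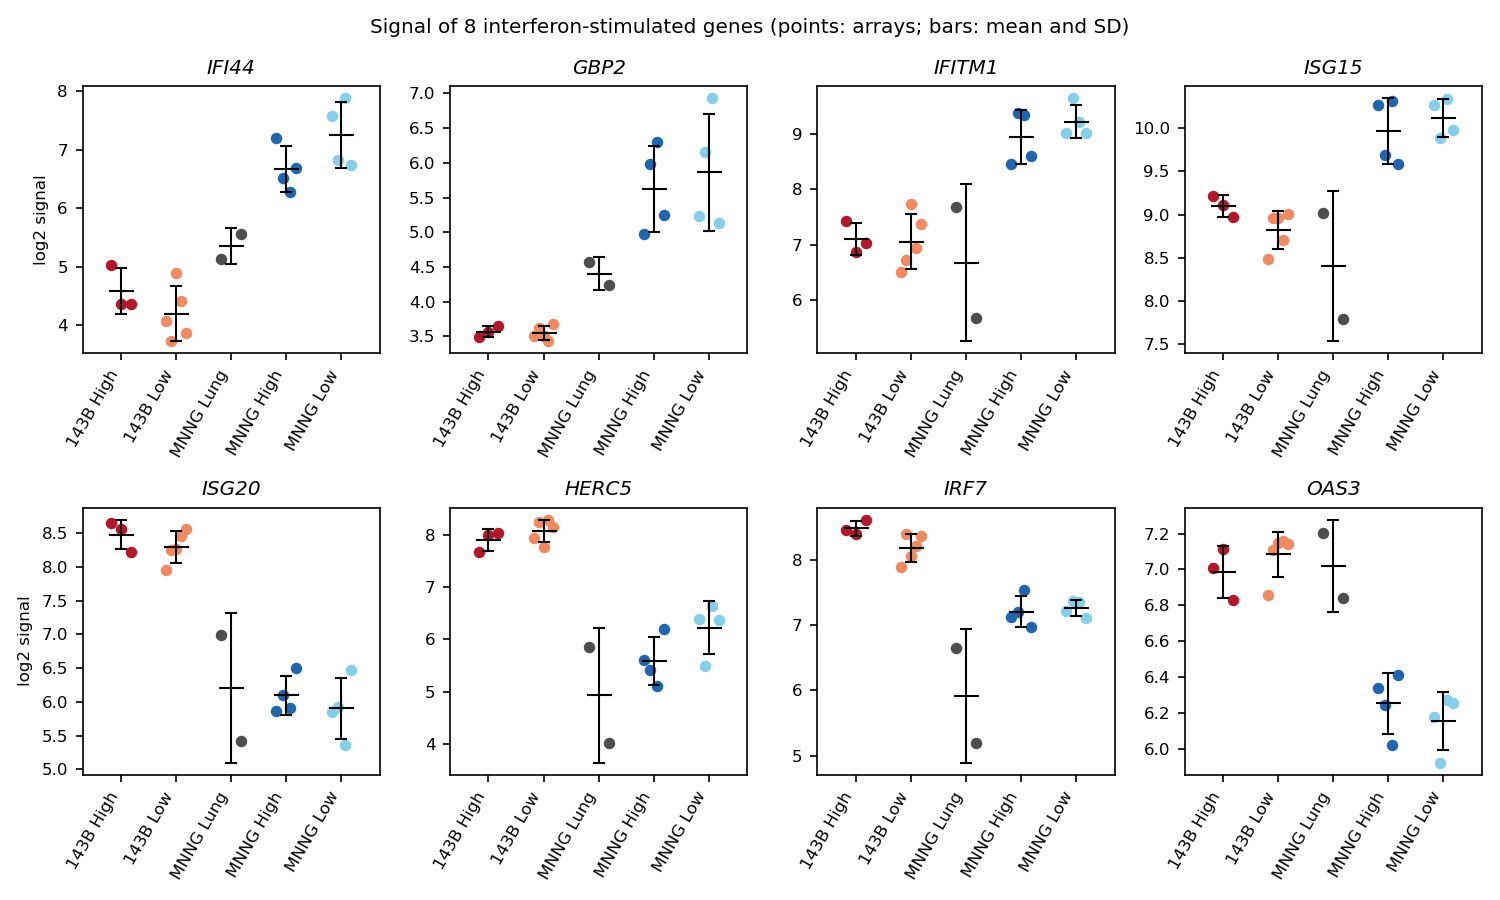
Log2 signal of 8 interferon-stimulated genes on every array, with groups on the horizontal axis and a separate vertical scale for each gene. Points are arrays, horizontal marks the group mean and bars the SD. IFI44, GBP2, IFITM1 and ISG15 are lower on all 143B arrays than on all bone tumor arrays of MNNG, and ISG20, HERC5, IRF7 and OAS3 are higher, while the lung arrays spread widely for IFITM1, ISG20, HERC5 and IRF7.

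The receptor chains differed less. IFNGR1 measured 8.42, 8.79, 8.46, 8.37 and 8.48 in 143B_Low, against 8.79, 9.12, 9.13 and 9.17 in MNNG_Low. Its closest arrays, 143B_Low of tumor 143B-1252 and MNNG_Low of tumor MNNG-1231, both read 8.79, although the groups did not cross. IFNGR1 was lower by the fit at -0.55 ± 0.18 and IFNGR2 at -0.56 ± 0.14 in Low cells (adjusted p = 0.0275 and 0.00475). In High cells neither was called, with -0.28 ± 0.20 and -0.34 ± 0.16. IFNAR1 and IFNAR2 were not called between the lines in either fraction (differences of -0.18 and 0.06 in Low cells, 0.25 and 0.13 in High cells).

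The families did not move as units. The 4 IFIT genes encode proteins that bind foreign RNA and lie close together on chromosome 10. IFIT1 was called lower in 143B in both fractions, at -1.02 ± 0.18 and -0.56 ± 0.21. IFIT2 was called lower in Low cells alone (-1.58 ± 0.26, adjusted p = 0.000112, against -0.50 ± 0.29 and adjusted p = 0.185 in High cells), and a second IFIT2 probe set read -0.29 and -0.37. IFIT5 was called higher in High cells alone (0.75 ± 0.24), its second probe set reading -0.06, and IFIT3 was not called. Of the genes for the OAS enzymes, which make the messenger that activates RNase L, OAS3 was higher (0.92 ± 0.13 and 0.73 ± 0.14), with a dim second probe set at -0.08 and -0.04. The OAS-like gene OASL, whose product lacks that enzyme activity, was lower (-0.53 ± 0.13 and -0.50 ± 0.14). The dynamin-like MX1 was not called, and MX2 was called lower in High cells alone (-0.54 ± 0.19).

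PARP9 and PARP14, enzymes of the ADP-ribosylation family, lie on chromosome 3 with DTX3L, the partner of PARP9 in a ubiquitin ligase. PARP14 was higher in 143B, at 1.02 ± 0.15 in Low and 1.17 ± 0.17 in High cells (adjusted p = 3.3e-05 and 3.67e-05). Its second probe set was dim in both lines and read -0.20 and -0.45. PARP9 was called in Low cells alone (0.57 ± 0.19, adjusted p = 0.032), with 0.54 ± 0.22 in High cells (adjusted p = 0.0643), and the call in Low cells was lost after the second quantile normalization (adjusted p = 0.275). DTX3L, from the wider pathway list, was higher by 1.44 ± 0.13 and 1.43 ± 0.15 (adjusted p = 1.22e-07 and 9.89e-07).

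Between High cells, 17 of the 33 genes were called, 7 higher and 10 lower in 143B_High than in MNNG_High. That is 51.5%, against 36.1% of all genes, of which 21.4% were called higher and 14.7% lower. Of the 27 genes that were not under 5.36 on every 143B array, 12 were called, 7 higher and 5 lower, or 44.4%. In 14 of the 17 the arrays did not overlap, against 32% of all genes that were called without overlap. Counting uncalled genes, 17 of the 33 had no overlap, against 42% of all genes. The second quantile normalization lost IFIT1, IFIT5, MX2, RIGI and SAMD9 and added IFNGR1, and centring each array on its median turned the split into 9 higher and 7 lower. The 2 comparisons between the lines used different arrays, mostly of the same tumors. In both, 14 genes were called with the same sign, namely ISG20, HERC5, PARP14, OAS3 and IRF7 higher and IFI44, GBP2, IFITM1, GBP1, SAMD9, ISG15, IFIT1, BST2 and OASL lower. This is 77.8% of those called in Low cells and 82.4% of those called in High cells, where the shares over all genes were 69.5% and 55.5%, and it is 42.4% of the 33 genes, against 20% of all genes. The sign was the same in both fractions for 30 of the 33, or 90.9%, against 77.9% of all genes. Among the 14, IFI44, GBP2, GBP1 and IFIT1 lay under 5.36 on every 143B array and passed the filter through MNNG arrays. That favours a lower call in both fractions, so these shares are a description. The 12 genes called in neither fraction were IRF1, IRF9, IFNAR1, IFNAR2, IFIT3, IFI6, IFI16, IFI27, IFI35, MX1, USP18 and SAMHD1.

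**Figure D3:**
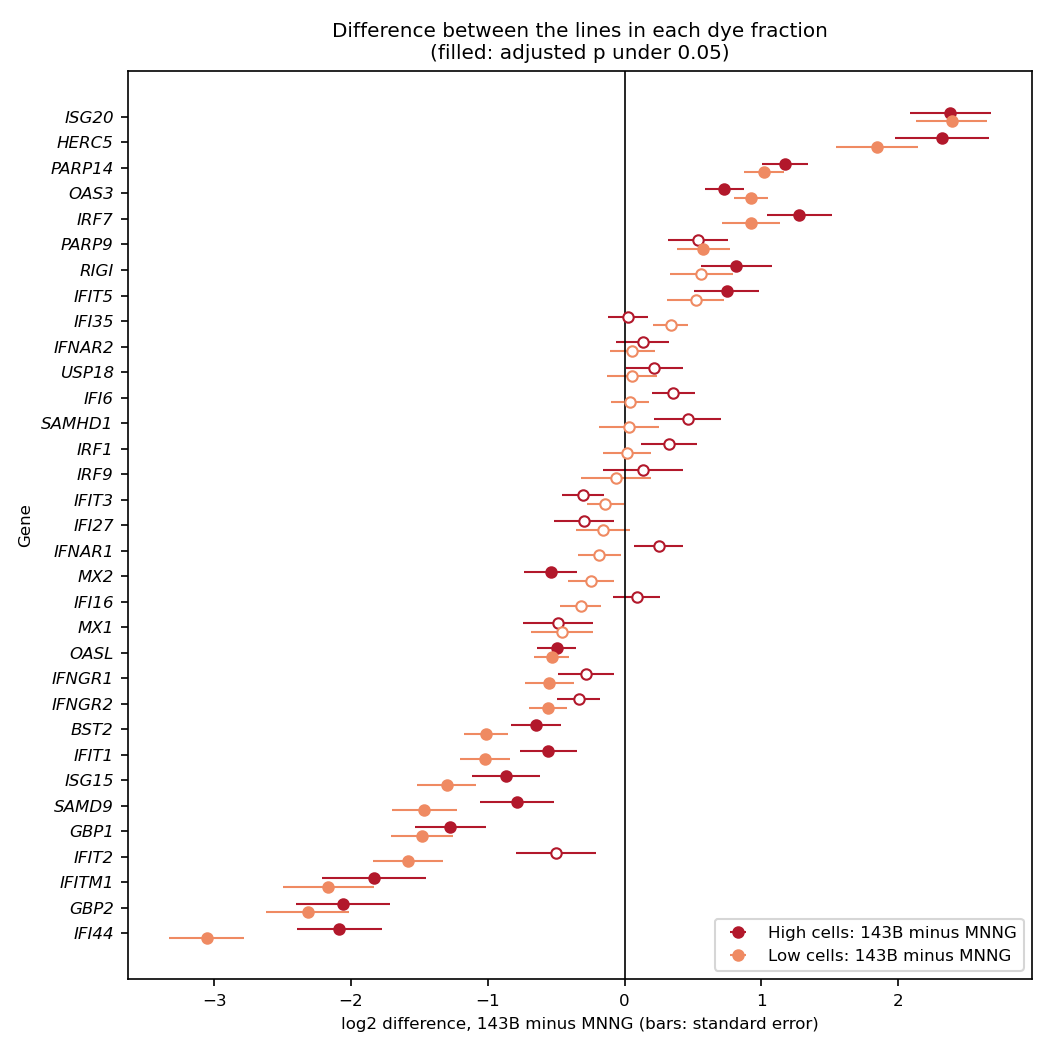
Log2 difference, 143B minus MNNG, of the 33 tested genes in High cells (dark) and Low cells (light), with standard errors, and filled points where the adjusted p was under 0.05. ISG20 at 2.39 in Low cells and IFI44 at -3.06 are the ends of the list, and the points of both fractions lie side by side for most genes, with IFIT2, IFI44 and SAMD9 further from 0 in Low cells.

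Macrophage markers and mitosis genes were called more often between the High groups than between the Low groups, and that difference was not tested. In Low cells 0 of 7 tested macrophage and myeloid markers were called by limma (1 at an unadjusted p under 0.05), and 4 of 14 mitosis genes were. In High cells 4 of the 7 macrophage markers were lower in 143B_High, their 14 measured members summing on the linear scale to 644 to 916 in 143B_High, against 1043 to 1967 in MNNG_High. In the same comparison 9 of 14 mitosis genes were higher. Other markers were called in Low cells too: TCF4, of the plasmacytoid dendritic cell list, and LAMP3 and KRT18, of the lung epithelium list, were higher in 143B by 1.70, 1.46 and 1.06 in Low cells and by 0.81, 0.72 and 1.17 in High cells. These lists did not move as units. In High cells LILRA4 of the first and SFTPC of the second were lower, at -0.55 and -0.36, and EPCAM of the second was higher, at 0.80. PRF1 and CD8A, of the T and NK cell list, were lower there, at -1.02 and -0.68. The part of these markers in the differences was not tested. Without the MNNG_High arrays of tumors MNNG-1231 and MNNG-1233, which had the narrowest spread, 12 of the 33 genes were called, beside 22.9% of all genes. Leaving out single arrays gave 11 to 19, beside 24% to 43.7% of all genes, and the lowest count came without the pool 54&55.

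The wider interferon pathway, 63 genes outside the list, of which 46 were tested, also had calls in both directions. In Low cells 12 were higher and 9 lower in 143B, and in High cells 13 were higher and 11 lower. Of all genes, 14.4% were called higher and 14.5% lower in Low cells, and 21.4% higher and 14.7% lower in High cells. TRIM5, a restriction factor against retroviruses, was higher by 2.38 ± 0.18 in Low cells, and its level was 6.98 in 143B_Low against 4.60 in MNNG_Low. LGALS3BP, a secreted glycoprotein, differed by -2.38 ± 0.25. SOCS3, an inhibitor of receptor kinases, differed by -2.02 ± 0.23, and JAK2, one of those kinases, by 1.12 ± 0.21. TRIM5 reached the filter level on 8 arrays and JAK2 on 9. In the MNNG groups, lung included, TRIM5 averaged 2.89 to 4.60 and JAK2 4.93 to 5.23, all under that level. A gene low in MNNG can pass the filter through 143B arrays, which favours a difference. The size of the TRIM5 and JAK2 differences is therefore uncertain.

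The promoters below are those of the 3 genes most strongly higher and the 3 most strongly lower in 143B_Low that were called in both fractions and have a promoter in the table used. They are shown because genes of opposite direction carry the same motif. Each runs 5′ to 3′ on the gene's strand over 300 bases, from 250 before the annotated start to 50 after it (RefSeq, GRCh38.p14). Capitals mark GAAA followed by any 2 bases and GAAA again, on either strand, the core of the interferon-stimulated response element.
ISG20: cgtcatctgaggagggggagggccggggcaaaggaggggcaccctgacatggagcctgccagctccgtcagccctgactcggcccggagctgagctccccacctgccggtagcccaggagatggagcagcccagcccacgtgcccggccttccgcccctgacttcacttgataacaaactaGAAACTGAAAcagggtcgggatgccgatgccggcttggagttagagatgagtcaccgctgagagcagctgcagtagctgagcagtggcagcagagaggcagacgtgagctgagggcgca
HERC5: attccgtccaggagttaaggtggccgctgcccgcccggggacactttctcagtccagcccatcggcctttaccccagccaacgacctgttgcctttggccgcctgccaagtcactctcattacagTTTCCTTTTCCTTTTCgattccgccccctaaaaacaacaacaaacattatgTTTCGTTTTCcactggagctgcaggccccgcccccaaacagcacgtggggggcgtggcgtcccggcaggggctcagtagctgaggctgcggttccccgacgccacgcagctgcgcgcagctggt
PARP14: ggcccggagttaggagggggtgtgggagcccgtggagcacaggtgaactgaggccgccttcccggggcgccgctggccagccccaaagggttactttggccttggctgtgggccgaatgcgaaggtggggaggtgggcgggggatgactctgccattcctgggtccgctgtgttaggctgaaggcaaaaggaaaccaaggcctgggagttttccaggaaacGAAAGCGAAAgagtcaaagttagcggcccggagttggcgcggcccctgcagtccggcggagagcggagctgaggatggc
IFI44: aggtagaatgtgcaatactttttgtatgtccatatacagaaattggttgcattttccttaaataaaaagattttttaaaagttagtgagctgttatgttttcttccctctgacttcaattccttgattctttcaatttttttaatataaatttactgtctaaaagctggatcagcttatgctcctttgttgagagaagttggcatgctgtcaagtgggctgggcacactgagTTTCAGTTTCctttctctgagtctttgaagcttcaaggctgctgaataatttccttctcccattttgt
IFITM1: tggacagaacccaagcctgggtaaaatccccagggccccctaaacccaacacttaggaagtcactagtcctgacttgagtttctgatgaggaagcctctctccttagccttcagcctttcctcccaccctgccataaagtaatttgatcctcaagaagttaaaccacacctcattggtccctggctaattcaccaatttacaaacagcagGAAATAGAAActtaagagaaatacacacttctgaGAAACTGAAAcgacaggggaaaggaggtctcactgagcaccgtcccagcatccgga
GBP1: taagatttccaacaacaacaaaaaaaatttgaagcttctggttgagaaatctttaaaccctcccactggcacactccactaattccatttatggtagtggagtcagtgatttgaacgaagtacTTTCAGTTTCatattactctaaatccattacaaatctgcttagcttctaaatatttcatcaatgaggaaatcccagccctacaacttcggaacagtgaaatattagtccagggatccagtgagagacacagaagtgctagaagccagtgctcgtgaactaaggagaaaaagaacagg

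ISG20 is at chr15:88638766-88639065 on the plus strand, HERC5 at chr4:88456869-88457168 plus and PARP14 at chr3:122680589-122680888 plus. IFI44 is at chr1:78649539-78649838 plus, the first of its 2 annotated starts, IFITM1 at chr11:313790-314089 plus and GBP1 at chr1:89065159-89065458 minus. Of the 43 listed genes, 33 had a promoter in the table, and 20 of these held the motif in at least 1 start, or 60.6%. Of all genes with a promoter given there, 4.38% did, and of all 35116 promoters 3.57%. The list holds genes known for this motif, so the share describes the list. The motif was in all 4 genes higher in both fractions that had a promoter (ISG20, OAS3, HERC5 and PARP14). It was also in all 7 that were lower (IFIT1, IFITM1, IFI44, ISG15, SAMD9, GBP1 and BST2). Of the 15 tested genes with a promoter that were not called in both fractions, 6 held it. The shorter motif TTCNNNGAA, the core of the gamma-activated site, which reads the same on both strands, was in 9 of the 33 genes, or 27.3%, against 9.38% of all genes. Both are letter matches only, and either motif can lie outside these windows.

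Within MNNG tumors 1 of the 33 genes was called between High and Low cells in the fit of group means, and 12 were with tumor as a block. The 1 gene was IFNAR1, a chain of the type I interferon receptor, and it was lower in MNNG_High. It measured 6.96, 7.44, 6.69 and 7.33 in MNNG_High, against 7.61, 7.53, 7.97 and 7.55 in MNNG_Low, and it was the 1 gene of the 33 whose arrays did not overlap, where 29.8% of all genes had none and 19.1% were also called. The difference was -0.56 ± 0.17 (adjusted p = 0.0247), and the 3 other IFNAR1 probe sets read -0.39, -0.22 and -0.12. This 1 gene is 3.03% of the 33, while 26.1% of all genes were called (10.6% higher and 15.5% lower), and 5 of the 33 had an unadjusted p under 0.05. The median of the 33 was -0.24 and that of all genes -0.19, a shift that was 0.01 after a second quantile normalization and -0.30 after centring each array on its median. IFNAR1 minus the median of all genes was -0.37, and it was no longer called after the second normalization (-0.31, adjusted p = 0.276). It was also lost without the High array of MNNG-1231, the High array of MNNG-1233 or the Low array of MNNG-1233, when no gene of the 33 was called. In those fits 9.54%, 11.6% and 11.6% of all genes were called. Without the High array of MNNG-1235, 10 of the 33 were, beside 41.2% of all genes.

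High and Low cells came from the same 4 tumors, so the fit with tumor as a block, made without the lung arrays, compares cells within a tumor. It called 12 of the 33 genes, beside 55.8% of all genes. By the probe sets used, IFIT3 and IFI35 were called higher in MNNG_High, at 0.30 ± 0.10 and 0.28 ± 0.11 (adjusted p = 0.0245 and 0.0498). A second IFIT3 probe set, also over the filter, read -0.37, so no direction is given for IFIT3. The other 10 were called lower, namely HERC5, SAMD9, SAMHD1, IFI44, IFIT5, IFNAR1, RIGI, USP18, IFI6 and IFI16, from -0.65 ± 0.18 for HERC5 to -0.30 ± 0.11 for IFI16. In the fit of group means the second quantile normalization turned IFI16 to 0.03 and brought IFI6 to -0.07, so no direction is given for IFI16, and the other 8 read -0.69 to -0.31 there. The same arrays without the block gave 4 calls and 44.4% of all genes. In 12 of the 33 genes High was below Low in all 4 tumors (36.4%, against 41.8% of all genes), and in 4 it was above (12.1%, against 18.9%). The 4 were IFIT3, IFI35, ISG20 and MX2.

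Tumor MNNG-1233 gave the largest differences of several genes. HERC5, SAMD9 and IFI44 were lower in its High cells by -1.54, -1.54 and -1.61, while in tumor MNNG-1235 the same differences were -0.18, -0.05 and -0.05. SAMHD1, which cuts the supply of nucleotides to viruses, read -1.21 in tumor MNNG-1233, -0.75 in MNNG-1231 and between -0.24 and -0.17 in the others. The High arrays of MNNG-1233 and MNNG-1231 were also those with the narrowest signal spread in MNNG_High. In the level class of MNNG_Low between 7 and 8, the median difference of all 2229 genes was -0.31 and that of the 8 listed genes in it -0.32. Between 5 and 6, it was 0.27 for 2685 genes and -0.13 for the 7 listed ones. Of 7 tested macrophage markers 4 were higher in MNNG_High, and their list summed on the linear scale to 1043 to 1967 in MNNG_High against 507 to 626 in MNNG_Low. Of 14 mitosis genes 6 were lower. Of 4 tested plasmacytoid dendritic cell markers TCF4, LILRA4 and IL3RA were higher, by 1.07, 0.57 and 0.45, their list summing to 1641 to 2799 in MNNG_High against 1695 to 1988 in MNNG_Low, and of 3 tested endothelium markers PECAM1 was, by 0.52. The part of these in the results was not tested. Of MNNG_Low, only tumor MNNG-1231 shared a date tag with MNNG_High, and with the tag in the fit none of the 33 was called, beside 2.55% of all genes.

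**Figure D4:**
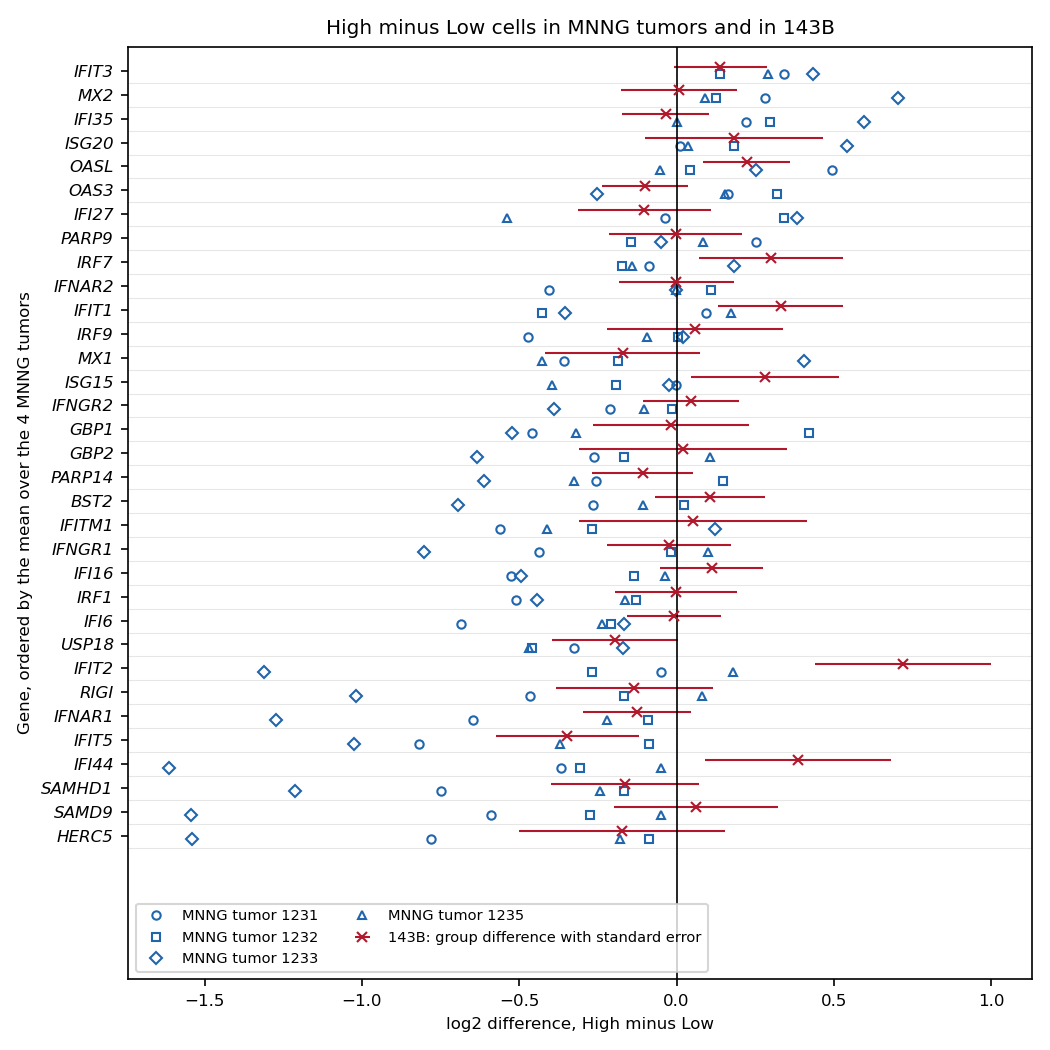
Log2 difference, High minus Low cells, of the 33 tested genes in each of 4 MNNG tumors (blue symbols) and in 143B (red crosses, group difference with its standard error). HERC5, SAMD9, SAMHD1 and IFI44 have the lowest means in MNNG, with tumor MNNG-1233 between -1.61 and -1.21 in each, and the 143B crosses lie between -0.35 and 0.39 except IFIT2 at 0.72.

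For some genes the tumors stood in a similar order in both fractions. GBP2 measured 5.99 and 6.30 in MNNG_High of tumors MNNG-1232 and MNNG-1233 but 4.97 and 5.25 in MNNG-1231 and MNNG-1235. In MNNG_Low it measured 6.15 and 6.93 in MNNG-1232 and MNNG-1233 and 5.23 and 5.14 in MNNG-1231 and MNNG-1235. Tumor MNNG-1235 had the lowest IFIT1 in both fractions, at 4.93 in MNNG_High and 4.75 in MNNG_Low, and the lowest MX1, at 4.65 and 5.08. Other genes did not share the order, and IFNAR1 in tumor MNNG-1233 was the lowest of MNNG_High at 6.69 and the highest of MNNG_Low at 7.97. Over the 33 genes, deviations from the group means of the High and Low arrays of a tumor correlated with r of 0.80 for MNNG-1231, 0.45 for MNNG-1232, 0.31 for MNNG-1233 and 0.64 for MNNG-1235. The highest r between arrays of different tumors was 0.24. Over all genes the same-tumor r, in the same order, was 0.49, 0.37, 0.30 and 0.58. These are correlations across genes, which are not independent.

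Within 143B no gene of the list was called between High and Low cells by limma, with 1 of 33 at an unadjusted p under 0.05, and 0.00694% of all genes were called. That gene was IFIT2, which measured 6.02, 5.85 and 6.08 in 143B_High, against 4.81, 5.14, 5.61, 5.52 and 5.23 in 143B_Low. Its arrays did not overlap, as was so for 11.9% of all genes, at a difference of 0.72 ± 0.28 (95% interval 0.13 to 1.31, adjusted p = 0.879). The other differences lay between -0.35 for IFIT5 and 0.39 for IFI44, with standard errors of 0.14 to 0.36. The median of the 33 was -0.00066 and that of all genes -0.016. The test of whether the High-Low difference itself differed between the lines also called none of the 33 (2 at an unadjusted p under 0.05, and 0.00694% of all genes called). IFIT2 gave -1.08 ± 0.39 there (MNNG minus 143B, adjusted p = 0.461) and IFI44 -0.97 ± 0.41 (adjusted p = 0.475). With tumor as a block the counts for 143B and for the difference between the lines were again 0.

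On the MNNG_Lung arrays 24 of the 33 genes were called against MNNG_Low, 6 higher and 18 lower, and 23 against MNNG_High, 7 higher and 16 lower. Against MNNG_Low that is 72.7% of the 33, where 87% of all genes were called, 35.1% higher and 51.9% lower. Against MNNG_High it is 69.7%, where 82.4% of all genes were called, 34.8% higher and 47.6% lower. Arrays did not overlap in 23 of the 33 genes against MNNG_Low, all of them called, where 85.7% of all genes had no overlap and 84.2% were also called. Against MNNG_High it was 21, again all called, beside 77.6% and 76.3% of all genes. The 2 comparisons share the lung arrays, so they are not independent of each other. The median over all genes was -0.64 against MNNG_Low, -0.12 after a second quantile normalization and -1.05 after centring, and differences are to be read against it. Over all genes the difference went with the level in bone tumors. Tested genes with a mean under 5 in MNNG_Low had a median difference of 1.60, those of 7 to 8 a median of -0.85 and those of 10 or more a median of -4.09. A gene low in MNNG_Low can pass the filter through the lung arrays, which raises the medians at low levels.

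The receptor chains for interferon gamma, IFI16, SAMHD1 and IFIT5 had the largest differences, all lower on the lung arrays. IFI16, a sensor of DNA in the nucleus, measured 4.93 and 5.37 in MNNG_Lung, against 8.69, 8.95, 8.98 and 8.96 in MNNG_Low. It was lower at -3.74 ± 0.19 against MNNG_Low (adjusted p = 2.57e-12), or -3.10 from the median of all genes, and its other 2 probe sets read -5.32 and -3.50. IFNGR1 measured 6.13 and 5.93 in MNNG_Lung, against 8.79, 9.12, 9.13 and 9.17 in MNNG_Low. SAMHD1, IFIT5, IFNGR1 and IFNGR2 were lower at -3.28 ± 0.28, -3.18 ± 0.27, -3.02 ± 0.23 and -2.77 ± 0.18. A second IFIT5 probe set read -0.35. IFNAR1 was lower at -1.34 ± 0.20 against MNNG_Low and -0.78 ± 0.20 against MNNG_High, and IFNAR2 was not called in either. The 3 other IFNAR1 probe sets disagreed, reading -2.24, -0.03 and 0.30 against MNNG_Low and -1.85, 0.18 and 0.42 against MNNG_High. After the second quantile normalization IFNAR2 and the transcription factor IRF1 were called higher than in MNNG_Low, at 1.09 and 1.33, so no direction is given for them.

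Set against genes of the same level in MNNG_Low, genes of the list stood at very different places. IFNGR1 was at the 52.6th percentile of its level class and IFNGR2 at the 73.3rd. IFI16 stood at the 14.8th. ISG15, at 9.02 and 7.79 in MNNG_Lung against 10.27, 9.89, 10.35 and 9.99 in MNNG_Low, was lower at -1.72 ± 0.28, yet it stood at the 84th percentile of its class, whose median was -4.09. After the second normalization ISG15 was not called (-0.08, adjusted p = 0.822). GBP2, SAMD9 and USP18, which removes ISG15 from proteins, were lower at -1.46 ± 0.39, -2.61 ± 0.31 and -0.90 ± 0.24, and stood at the 1.71st, 1.75th and 4.21st percentiles of theirs. The class medians there were 1.33, 0.51 and 1.33, so these genes were lower where most tested genes of their level were higher. GBP2 reached the filter level on only 4 arrays, all of them bone tumor arrays of MNNG. Passing the filter in this way favours a lower value on the lung arrays, so the size of the GBP2 difference and its percentile are uncertain. A second SAMD9 probe set read -0.49 and a second GBP2 probe set -0.40. The percentiles describe these 2 arrays and are no test.

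**Figure D5:**
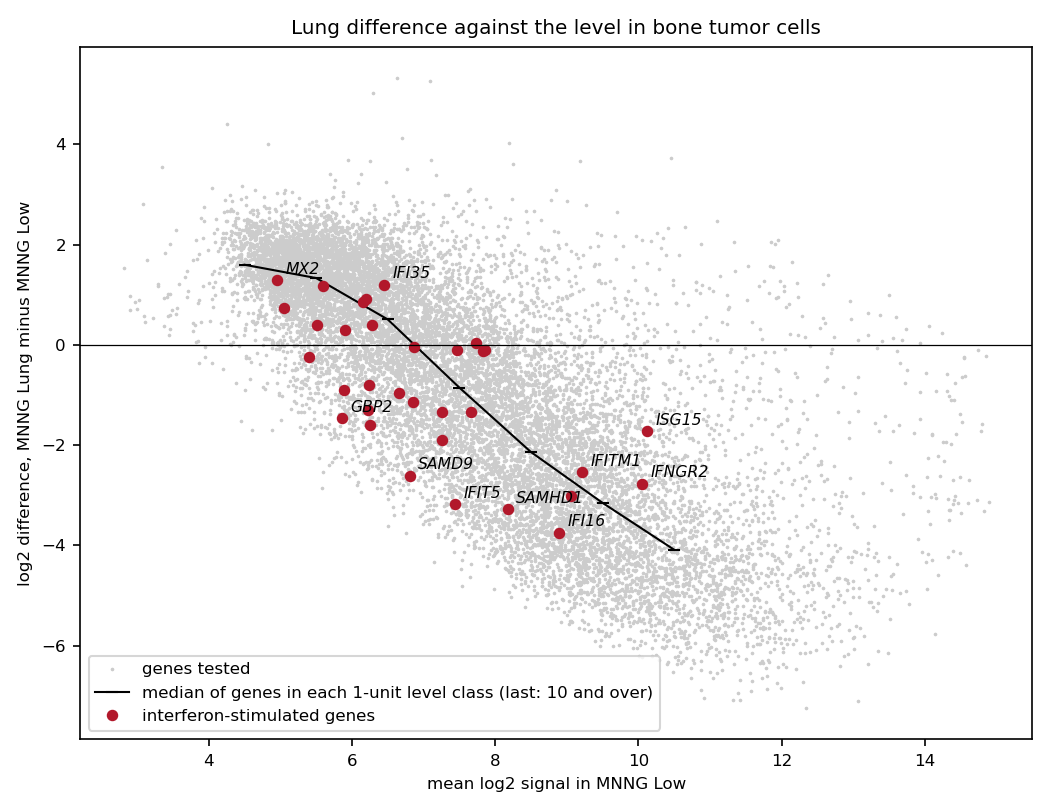
Log2 difference, MNNG_Lung minus MNNG_Low, against the mean log2 signal in MNNG_Low for all 14418 genes tested (grey), with the 33 interferon-stimulated genes in red and a line through the median of each level class. The line runs from 1.60 at the low end to -4.09 at the high end, GBP2 and SAMD9 lie well below it, and ISG15 lies above it.

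A smaller group was called higher on the lung arrays. MX2, IFI35, PARP9, IFIT3, OAS3 and IFI27 were called higher than in MNNG_Low by 1.30 ± 0.22, 1.20 ± 0.16, 1.18 ± 0.25, 0.91 ± 0.18, 0.86 ± 0.16 and 0.74 ± 0.25, and the same genes with BST2 (0.66 ± 0.21) were higher than in MNNG_High. IFIT3 rests on 1 of 2 probe sets over the filter, the other reading -1.89 against MNNG_Low and -1.53 against MNNG_High, so no direction is given for IFIT3. A second PARP9 probe set read 1.09, and a dim second OAS3 probe set 0.33. IFI27 was not called under either other scaling. MX2 and IFI27 each reached the filter level on only 3 arrays. These were both lung arrays and the MNNG_High array of MNNG-1233, and no MNNG_Low array was among them. Passing the filter in this way favours a difference, so the size of the MX2 and IFI27 differences is uncertain. MX2, which blocks nuclear entry of retroviruses, measured 6.26 and 6.24 in MNNG_Lung, against 5.00, 5.09, 5.03 and 4.69 in MNNG_Low. The 6 genes averaged 4.95 to 6.45 in MNNG_Low, levels at which genes in general were higher on the lung arrays. MX2, IFI27 and PARP9 stood at the 30.4th, 25.9th and 41.9th percentiles of their classes, and IFI35, IFIT3 and OAS3 at the 70.9th, 62.0th and 60.4th. Among the genes too low for the filter, XAF1, OAS1, OAS2 and RSAD2 were higher than in MNNG_Low by 2.60 ± 0.23, 2.0 ± 0.21, 1.36 ± 0.22 and 1.03 ± 0.22 when fitted without it. Without the filter 88.2% of all genes were called in this comparison. These genes averaged 3.51 to 4.61 in MNNG_Low. Tested genes with a mean under 5 there had a median difference of 1.60, with OAS2 and RSAD2 below it and XAF1 and OAS1 above. Genes of that level can pass the filter through the lung arrays, which raises this median, while these 4 genes did not pass it. The comparison is therefore not one of like genes. Without the filter the median over all genes, of any level, was 0.43. XAF1, an antagonist of an inhibitor of apoptosis, measured 6.25 and 6.79 in MNNG_Lung and at most 5.28 on any bone tumor array. TRIM22 and HERC6 were not called in any comparison fitted without the filter.

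The 2 lung arrays differed from each other, with r of 0.865 over all probe sets, and several listed genes showed it. HERC5 measured 5.85 on the array numbered 1233 and 4.02 on Mix, ISG20 6.99 and 5.43, IRF7 6.64 and 5.19, and IFITM1 7.68 and 5.68. RIGI ran the other way, with 5.06 and 6.33. ISG20 was not called against either bone group. Macrophage markers stood high on both arrays. All 7 tested macrophage markers were higher than in MNNG_Low, all 14 measured ones averaged over 5.36 in MNNG_Lung and their list summed on the linear scale to 2330 to 2600 in MNNG_Lung against 507 to 626 in MNNG_Low. Of 14 mitosis genes 13 were lower, their sum being 645 to 918 in MNNG_Lung against 8774 to 10938 in MNNG_Low. The lung epithelium list was lower in sum, at 1418 to 1528 in MNNG_Lung against 4560 to 4791 in MNNG_Low, with KRT18 and EPCAM both lower by -3.74 and 5 of its 8 tested genes higher. The T and NK cell list summed to 817 to 870 in MNNG_Lung against 318 to 459 in MNNG_Low, and the endothelium list to 637 to 738 in MNNG_Lung against 214 to 247 in MNNG_Low. Most of these markers had MNNG_Low levels at which genes in general were higher on the lung arrays. VWF (0.998) lay below its class median of 1.33, and CD3E (1.63) above it but under the upper quartile, 1.77. CD8A (2.70), CLDN5 (1.84) and PECAM1 (1.65) lay above the upper quartile of their classes. Whether the lists rose beyond genes of their level was not tested. Of the plasmacytoid dendritic cell list 3 tested markers were higher and NRP1 was lower, at -6.05. The part of these in the results was not tested. The lower call of IFI44 on the lung arrays (-1.91 ± 0.35 against MNNG_Low) was lost when its probe sets were averaged (-0.33, adjusted p = 0.262). With array weights, 15 of the 33 genes were called against MNNG_Low and 13 against MNNG_High, beside 69.7% and 61.9% of all genes.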

How the data were processed

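The values were deposited as a table of log2 signals for 54675 probe sets on 18 Affymetrix arrays, and the authors made them with RMA, per the submitters' processing notes. Cells of human lines were transplanted, and the labels used here do not name the host. GEO's platform annotation pairs 41097 probe sets with 1 gene, 1801 with several and 11777 with none. For each gene the single-gene probe set with the highest mean over the arrays was kept, and genes at or over 5.36 on at least 3 arrays were tested. limma 3.58.1 in R 4.3.3 fitted 5 group means to all 18 arrays, and 7 comparisons were drawn from the fit. P-values were adjusted by Benjamini-Hochberg over 14418 genes, and a gene was called under 0.05. The steps were tested on simulated data. The number of arrays limits the precision.

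The genes of the list, the wider pathway list and the marker lists were chosen with earlier results of these data known. Named in full were up to 10 called genes with the largest difference in a comparison, and those whose call differed between comparisons. From other lists, up to 4 with the largest called difference were named, and GBP3, DTX3L and JAK2 were added after their values were seen. The MNNG tumor numbers are the same tumors in both fractions, and the deviations of same-numbered arrays correlated at 0.30 to 0.58 over all genes. The labels number the tumors but do not say how many each animal carried. In the main fit p-values measure the spread of arrays within the 5 groups, with High and Low arrays of a tumor taken as independent. With tumor as a block they measure the spread left after the tumor is taken out. Each line is 1 line, so no p-value measures a spread between lines. Promoters came from a RefSeq table.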

Additional observations from a re-analysis of the deposited data

Results flagged for a closer look

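Among 99 sets of 4 or 5 values (33 genes in 143B_Low, MNNG_High and MNNG_Low), 5 held a sample far from the others by Dixon's ratio. Chance flags about 1 in 20 such sets, so 5 is near what chance gives. IFNGR1 measured 8.79 in 143B_Low of tumor 143B-1252, with the nearest other array at 8.48. OAS3 measured 6.86 in 143B_Low of tumor 143B-1251, with the nearest at 7.11. In MNNG_Low, IFNGR1 measured 8.79 in tumor MNNG-1231, with the nearest at 9.12, and IFI16 measured 8.69 in the same tumor, with the nearest at 8.95. IFIT2 measured 5.97 in MNNG_Low of tumor MNNG-1235, with the nearest at 7.07.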

How the results depend on the processing

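Between the lines, the count of called genes was 18 in Low cells and 13 to 23 under the alternatives, with 16 to 17 when single arrays were left out. The 13 came without probe sets of types _x_at and _s_at, where 25 of the listed genes were tested. The shares of all genes were 28.8%, 21.5% to 48.7% and 23.9% to 26.1%. In High cells the count was 17, with 12 to 23 under the alternatives and 11 to 19 when single arrays were left out (11 without the pool 54&55). There the shares of all genes were 36.1%, 22.9% to 53.3% and 24% to 43.7%. For MNNG_High against MNNG_Low the count of 1 became 2 without the filter, 2 without probe sets of types _x_at and _s_at, 2 with array weights, 5 after centring, 4 without the lung arrays, and 12 with tumor as a replicate block, where the pairing is that of the tumors. The shares of all genes called, in the same order, were 20.6%, 28.1%, 39.3%, 32.9%, 44.4% and 55.8%, beside 26.1% in the main fit. The count became 0 after the second quantile normalization, with only the groups compared, and with a term for the date tag in the fit. There 7.36%, 16.1% and 2.55% of all genes were called. Within date tag 2, which leaves 1 MNNG_Low array, the median difference of the 33 was -0.09. Single arrays left out gave 0 to 10, beside 9.54% to 41.2% of all genes. Chosen after seeing the data were a second normalization of the bone tumor arrays alone, which gave 2, leaving out the 2 narrowest MNNG_High arrays, which gave 0, and counting between the lines without the 6 genes under the filter level on every 143B array, which gave 14 in Low and 12 in High cells. Of all genes, 20.9% and 0.388% were called in the first and second of these, and 28.8% and 36.1% in the last. Within 143B, and for the difference between the lines, the count was 0 in every setting run, the replicate block included. With array weights the lung counts of 24 and 23 became 15 against MNNG_Low and 13 against MNNG_High, beside 69.7% and 61.9% of all genes. Single bone tumor arrays left out gave 24 to 25 and 21 to 24, beside 85.8% to 86.2% and 80.5% to 83.1%. Without probe sets of types _x_at and _s_at, 17 of 25 tested genes were called against MNNG_Low, 7 higher and 10 lower. Against MNNG_High 17 were, 8 higher and 9 lower. Of all genes 86.6% and 81.3% were called. The medians of the listed genes were -0.11 and 0.03 there, against -0.90 and -0.54 in the main fit. Averaged probe sets gave 22 and 19 of 32 genes, beside 85.6% and 80.9% of all genes, with medians of -0.29 and -0.16. Of the values under alternatives for called genes, at most 10 a comparison with the largest differences, 635 kept their direction and their call, 24 lost the call and 0 changed sign. Genes outside these did change sign with scaling: after the second quantile normalization IFNAR2 read 1.09 against -0.13 on MNNG_Lung over MNNG_Low, and IFI16 0.03 against -0.30 in MNNG_High over MNNG_Low, and after centring IRF1 read -0.35 against 0.03 on MNNG_Lung over MNNG_Low. Genes near the filter have a low signal over background, which limits the precision of their differences. The lung group has 2 arrays that differ from each other, and the line comparison is also a comparison of date tags.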
